A study of Equus caballus with 6 samples.

Results

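Matrix metalloproteinases (MMPs) and tissue inhibitors of metalloproteinases (TIMPs) were examined in lamellar hoof tissue of horses, the interlocking epidermis and dermis by which the hoof wall carries the coffin bone. The genes were MMP1, MMP2, MMP3, MMP9, MMP13, MMP14, MMP19, TIMP1, TIMP2 and TIMP3, and a probe set was taken where the platform annotation gave it exactly 1 of these 10 symbols. The 10 genes, of 9155 that the annotation names by a single symbol, had 19 of the 24016 probe sets of the array that are not controls, 13 of them for the 7 MMP genes and 6 for the 3 TIMP genes. The laminitis group held 3 samples of diseased lamellar tissue (replicates 1, 3 and 4), and the normal group held 3 samples of normal lamellar tissue (replicates 2, 3 and 4), all from the right foot. Each sample was read on 1 Affymetrix bovine GeneChip, and the series compared the groups to find transcripts that differ between diseased and normal lamellae. The sources used here give no cause of the laminitis, stage, breed, age or drug, and do not say whether the samples are separate horses, so the spread behind each p-value is that among these 6 samples and could be technical.

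MMPs are zinc-dependent endopeptidases that cleave extracellular matrix. Most are secreted as inactive proenzymes, opened by plasmin, other proteases or a membrane-type MMP, and then held in check by TIMPs, which bind the active site. Laminitis is the failure of the lamellar attachment, and loss of the basement membrane between epidermis and dermis has made the gelatinases MMP2 and MMP9 and their regulators long-standing subjects of study in this tissue. Enzyme activity depends on activation and inhibition of the protein, which transcript levels do not measure.

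Signals are the deposited linear values, scaled to a common level on every array, and the median probe set of an array lay between 86.7 and 96.6. The probes are bovine and the RNA equine, so a low signal can be a low transcript or a poor match to the horse sequence, and no level is set against that of another probe set. The test took in probe sets that exceeded the median of the same array on at least 3 of the 6 arrays. This left 8 of the 19 probe sets, namely those of MMP2 and TIMP3, all 3 of TIMP2, and the brightest of MMP3, MMP19 and TIMP1, and 12519 probe sets in all. The other 11, with every probe set of MMP1, MMP9, MMP13 and MMP14, are described by their values, with a limma p from a fit of all 24016 probe sets. Errors of log2 differences, laminitis minus normal, are limma's standard errors (n = 3 per group), with 95% confidence intervals, and probe sets of a gene are named a, b and c in order of falling mean signal. The array of laminitis replicate 1 stood apart in its control RNAs. All 8 probe sets for the 5' ends of the poly-A controls, bacterial transcripts that pass through the labelling with the sample, were lowest there, by 1.74-fold to 5.92-fold below the next lowest array, against 0 of the 8 probe sets for their 3' ends. The hybridisation controls, added after labelling, lay higher on every laminitis array than on every normal array for 17 of 18 probe sets, with a median log2 difference of 0.51, so all differences here are relative to the common level of the arrays. Keratinocyte markers were read in every sample, with KRT14, the basal keratin, at 469, 503 and 509 in laminitis and 609, 397 and 143 in normal tissue.

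**Figure D1:**
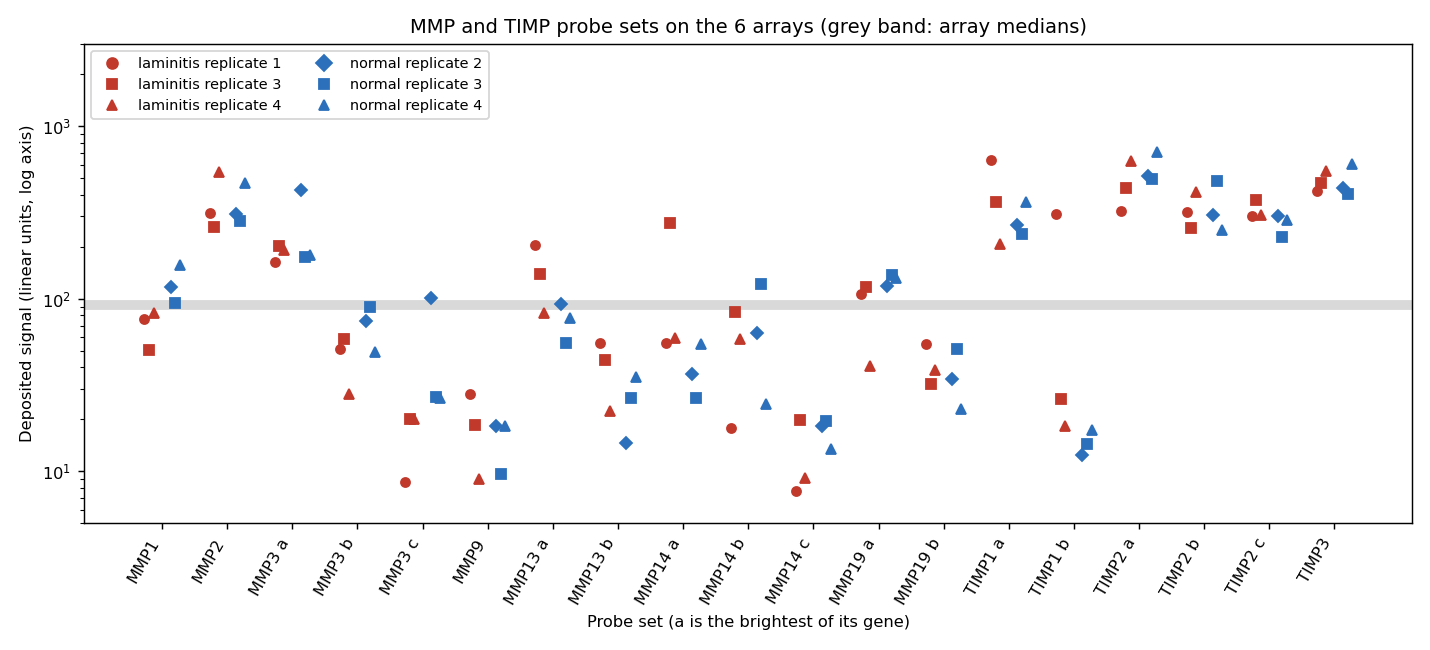
Deposited signal (linear units, logarithmic axis) of the 19 MMP and TIMP probe sets on the laminitis arrays (red, left) and normal arrays (blue, right), with 1 point per array and the range of array medians as a grey band. MMP2, MMP3 a, TIMP1 a, TIMP2 and TIMP3 lie above the band on all 6 arrays, and MMP9, MMP13 b, MMP14 c and MMP19 b lie below it on all 6.

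The collagenases MMP1 and MMP13, which cut fibrillar collagen within the triple helix, had differences of opposite sign. MMP1 read 76.7, 50.3 and 82.9 on the arrays of laminitis replicates 1, 3 and 4, against 117, 94.0 and 158 on those of normal replicates 2, 3 and 4. Every laminitis value lay below every normal value, and normal replicate 3 itself lay just below its array's median. The mean signal was 70.0 ± 17.3 in laminitis and 123 ± 32.3 in normal tissue (SD, n = 3 each), and the log2 difference was -0.81 ± 0.32 (95% interval -1.58 to -0.05). In the fit of all probe sets this gave a limma p of 0.0402 unadjusted and 0.663 after Benjamini-Hochberg adjustment, so MMP1 did not pass. MMP1 had 1 probe set, too dim on laminitis arrays for the main test, so its fold depends on values below the array median. The difference stayed between -0.99 and -0.59 when any 1 array was left out.

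MMP13 a read 206, 139 and 83.0 on laminitis replicates 1, 3 and 4, against 93.8, 55.2 and 77.5 on normal replicates 2, 3 and 4. Laminitis replicates 1 and 3 lay above all normal arrays, and laminitis replicate 4 lay among them. The log2 difference was 0.86 ± 0.40 (95% interval -0.11 to 1.82, limma adjusted p 0.684 over all probe sets). The dimmer MMP13 b read 55.1, 44.4 and 22.4 in laminitis and 14.5, 26.6 and 35.3 in normal tissue, with a log2 difference of 0.67 ± 0.47. Both MMP13 probe sets were highest on laminitis replicate 1 and next on laminitis replicate 3, although their groups overlapped. Without laminitis replicate 1 the differences were 0.54 for MMP13 a and 0.40 for MMP13 b. In the horse RefSeq table (TB-T2T assembly) MMP8, MMP1, MMP3 and MMP12 follow each other as coding genes, and MMP12 is also the neighbour of MMP13, so the probe sets of lower mean in laminitis (MMP1, MMP3) and of higher mean (MMP13) belong to 1 gene cluster.

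MMP3, stromelysin 1, degrades proteoglycans and basement membrane proteins and can open other proMMPs. MMP3 a read 163, 201 and 193 on laminitis replicates 1, 3 and 4, against 430, 175 and 180 on normal replicates 2, 3 and 4. Normal replicate 2 was 2.14-fold above the next array, and the other 5 arrays lay between 163 and 201. The log2 difference of -0.37 ± 0.37 (95% interval -1.24 to 0.51, limma adjusted p 0.773) became 0.060 without normal replicate 2. MMP3 c, a dim probe set, read 8.62, 20.0 and 20.2 in laminitis, against 101, 27.0 and 26.5 in normal tissue. Here the groups did not overlap, and normal replicate 2 again stood out, 3.73-fold above the next array. The log2 difference of MMP3 c was -1.46 ± 0.63 (95% interval -2.97 to 0.06, limma adjusted p 0.669 over all probe sets), and it was -0.82 without normal replicate 2. MMP3 b read 51.1, 58.7 and 28.1 in laminitis and 74.7, 89.6 and 49.4 in normal tissue, with a log2 difference of -0.66 ± 0.38, its groups overlapping and its highest value on normal replicate 3. All 3 MMP3 probe sets thus had negative differences, 2 of them highest on normal replicate 2.

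The gelatinases MMP2 and MMP9 cleave denatured collagen and type IV collagen. MMP2 was bright, at 316, 259 and 545 on laminitis replicates 1, 3 and 4 and 310, 281 and 470 on normal replicates 2, 3 and 4. The groups overlapped almost entirely, and replicate 4 was the highest array within each. Mean signals were 373 ± 152 in laminitis and 354 ± 102 in normal tissue (SD, n = 3 each), with a log2 difference of 0.04 ± 0.34 (limma adjusted p 0.979). The 95% interval of the fold, laminitis over normal, ran from 0.587 to 1.80, so changes of up to that size are not excluded by these 6 arrays. MMP9, the gelatinase stored in neutrophil granules, was read by 1 probe set that was dim everywhere, at 28.1, 18.5 and 9.0 in laminitis and 18.3, 9.63 and 18.2 in normal tissue. All 6 values lay below the median of their array. The log2 difference of 0.18 ± 0.49 (limma adjusted p 0.943 over all probe sets) was -0.19 without laminitis replicate 1. A transcript change of MMP9 was not detectable with this probe set, whose match to the horse sequence is not known.

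MMP14, the membrane-type MMP that activates proMMP2 together with TIMP2, was read by 3 probe sets, all below the filter. MMP14 a read 55.7, 273 and 59.5 on laminitis replicates 1, 3 and 4, against 36.8, 26.5 and 55.0 on normal replicates 2, 3 and 4. Every laminitis value lay above every normal value, but 2 of the 3 were within 5 units of normal replicate 4, and laminitis replicate 3 was 4.59-fold above the next array. The log2 difference was 1.36 ± 0.67 (95% interval -0.25 to 2.97, limma adjusted p 0.692 over all probe sets), and 0.61 without laminitis replicate 3. MMP14 b read 17.8, 84.2 and 58.3 in laminitis and 63.6, 121 and 24.6 in normal tissue, a log2 difference of -0.37 ± 0.78, which was 0.29 without laminitis replicate 1. MMP14 c lay below 20 on all 6 arrays, with a log2 difference of -0.59 ± 0.41. The 3 probe sets therefore differed in sign, and the largest difference rested on 1 array.

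MMP19, an MMP found in basal keratinocytes and vessels in human skin, had the smallest p among the 8 tested probe sets. MMP19 a read 106, 117 and 40.6 on laminitis replicates 1, 3 and 4, against 119, 138 and 131 on normal replicates 2, 3 and 4. All laminitis values lay below all normal values, but laminitis replicate 3 lay only just below normal replicate 2, and laminitis replicate 4 was the low array. The mean signal was 87.9 ± 41.2 in laminitis and 129 ± 9.65 in normal tissue (SD, n = 3 each), so the laminitis arrays spread more widely. The limma adjusted p was 0.616, with a 95% interval of the log2 difference from -1.66 to 0.26, and without laminitis replicate 4 the log2 difference was -0.21. The dimmer MMP19 b gave a log2 difference of 0.25 ± 0.38, with its groups overlapping.

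TIMP1, an inducible secreted inhibitor of most MMPs that also acts as a growth factor, varied most among the TIMPs. TIMP1 a read 639, 362 and 209 on laminitis replicates 1, 3 and 4, against 266, 236 and 364 on normal replicates 2, 3 and 4. Laminitis replicate 1 was 1.76-fold above the next array, while laminitis replicate 4 was the lowest of all 6. The mean signal was 403 ± 218 in laminitis and 289 ± 66.6 in normal tissue (SD, n = 3 each), and the log2 difference was 0.36 ± 0.42 (95% interval -0.62 to 1.34, limma adjusted p 0.807). It was -0.046 without laminitis replicate 1 and 0.76 without laminitis replicate 4. TIMP1 b, whose suffix _s_at marks probes that can match more than 1 transcript, read 308, 26.2 and 18.2 on laminitis replicates 1, 3 and 4, against 12.4, 14.4 and 17.4 on normal replicates 2, 3 and 4. The groups did not overlap, but laminitis replicate 1 was 11.8-fold above the next array, and the remaining 5 arrays lay between 12.4 and 26.2. Its log2 difference of 1.86 ± 1.04 (95% interval -0.65 to 4.36, limma adjusted p 0.712 over all probe sets) was 0.58 without laminitis replicate 1. Both TIMP1 probe sets, and both MMP13 probe sets, were highest on laminitis replicate 1, the array with low 5' signals of the poly-A controls. The part of this in the TIMP1 and MMP13 values was not tested.

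TIMP2, which inhibits MMP2 and also bridges proMMP2 to MMP14, and TIMP3, the inhibitor that binds to the matrix itself, were bright on every array. TIMP2 a read 323, 440 and 629 on laminitis replicates 1, 3 and 4, against 515, 492 and 710 on normal replicates 2, 3 and 4. The ranges overlapped, with the highest value of each group on replicate 4 and the lowest of all on laminitis replicate 1. TIMP2 b read 317, 257 and 417 in laminitis and 306, 481 and 249 in normal tissue, and TIMP2 c read 301, 372 and 305 in laminitis and 302, 229 and 286 in normal tissue. Each TIMP2 probe set had its highest value on a different array, and none separated the groups. The 95% intervals of the log2 difference were -1.04 to 0.37 for TIMP2 a, -0.77 to 0.70 for TIMP2 b and -0.23 to 0.75 for TIMP2 c, and the limma adjusted p ranged from 0.715 to 0.979.

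TIMP3 had the smallest difference of the 19 probe sets. It read 422, 468 and 553 on laminitis replicates 1, 3 and 4, against 436, 407 and 606 on normal replicates 2, 3 and 4. Again replicate 4 was the highest array in each group, and the means were 481 ± 66.3 in laminitis and 483 ± 107 in normal tissue (SD, n = 3 each). The log2 difference was 0.01 ± 0.23 (limma adjusted p 0.994), and the 95% interval of the fold, 0.686 to 1.47, was, on the log2 scale, the narrowest of the 8 tested probe sets after that of TIMP2 c, 0.852 to 1.68.

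**Figure D2:**
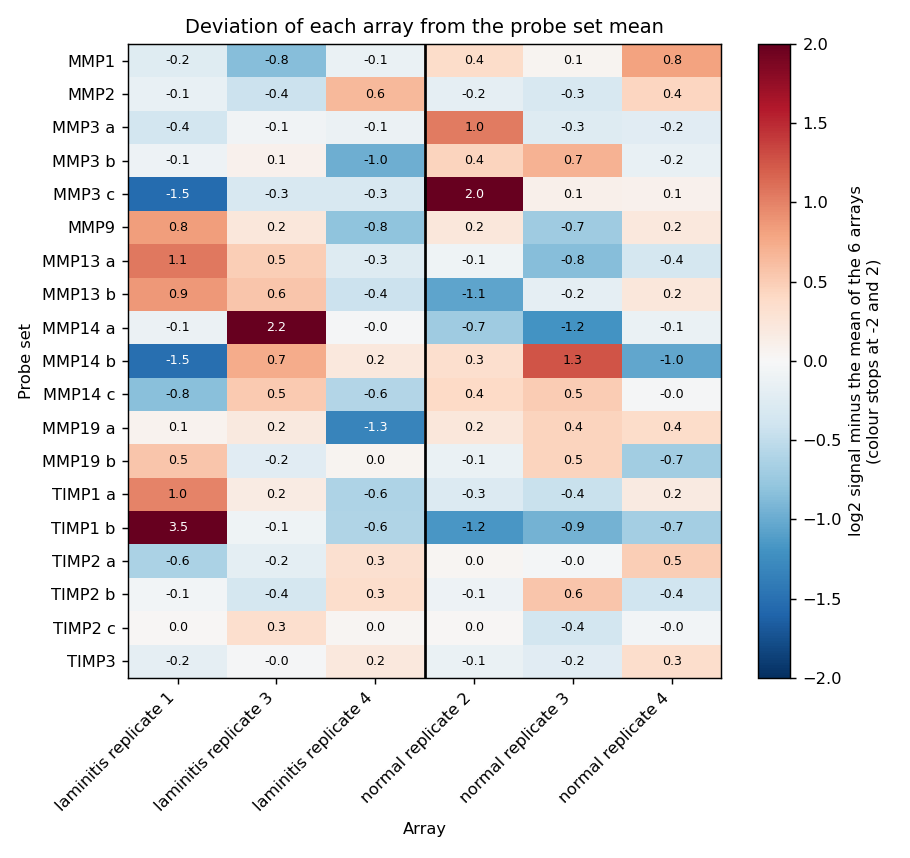
Log2 signal of each probe set (rows) on each array (columns, laminitis left of the line, normal right of it) minus the mean of its 6 arrays, printed in each cell and coloured from blue (low) to red (high), with colours ending at -2 and 2. The largest deviations lie on single arrays: laminitis replicate 1 for TIMP1 b, laminitis replicate 3 for MMP14 a and normal replicate 2 for MMP3 c.

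Members differed in the arrays on which they were highest, as the map of array deviations shows. MMP2, TIMP2 a and TIMP3 had their 2 highest values on laminitis replicate 4 and normal replicate 4, while TIMP2 b and TIMP2 c, MMP3 a, MMP19 a and TIMP1 a did not. This order was noticed in the members' own values and is a description. The same 2 arrays were the highest for 5 of 8 fibroblast markers, namely COL1A1, COL1A2, COL3A1, LUM and FAP, and not for DCN, PDGFRA and PDGFRB. Over all 6151 tested genes 5.35% had their 2 highest values on these 2 arrays. COL1A1, a chain of type I collagen, read 2837, 3276 and 10633 on laminitis replicates 1, 3 and 4, against 1487, 3954 and 8865 on normal replicates 2, 3 and 4. The summed signal of the 8 fibroblast markers, which weighs the brightest probe sets most, was 8104, 11388 and 29514 in laminitis and 7705, 13461 and 29206 in normal tissue. This sum thus spread more widely within each group than between the group means, and none of the 8 markers lay below the array median on every array. Of the 8, 2 separated the groups: DCN, given with the matrix substrates, had a log2 difference of -1.61 ± 0.42, and PDGFRA had 0.35 ± 0.20. Over all tested genes 8.37% had all laminitis arrays below all normal ones and 8.75% had them above. Dim PDGFRA probe sets had 1.07 and 0.07, with their groups overlapping. In bulk tissue fewer cells of a type cannot be told apart from less RNA per cell, and the part of fibroblast content in the MMP2, TIMP2 and TIMP3 values was not tested.

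Over the 8 tested MMP and TIMP probe sets, 4 had a positive and 4 a negative log2 difference, from -0.70 for MMP19 a to 0.36 for TIMP1 a. The median was -0.01, against -0.06 over all 12519 tested probe sets. In limma with Benjamini-Hochberg adjustment 0 of the 8 passed at 0.05, with adjusted p between 0.616 and 0.994, and over all tested probe sets 0.0% passed. At an unadjusted p under 0.05 there were 0 of 8, where 9.79% of all tested probe sets fell under that value. All laminitis arrays lay below all normal arrays for 1 of the 8, MMP19 a, where 8.92% of all tested probe sets did so. Among the 19 with dim ones included, 2 had all laminitis arrays above all normal ones (MMP14 a and TIMP1 b), against 6.32% of all 24016 probe sets. A further 3 had all laminitis arrays below (MMP1, MMP3 c and MMP19 a), against 8.32%, and 14 overlapped, with non-overlap in either direction at 14.6% over all probe sets. In the fit of all probe sets 0 of the 19 passed, with adjusted p of the 11 dim ones between 0.663 and 0.943. The 3 with log2 differences of at least 1 in size, MMP3 c, MMP14 a and TIMP1 b, against 9.98% of all 24016, were all below the filter. Each moved towards 0 when its 1 extreme array was left out, as it must when the highest array of the higher group is dropped.

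**Figure D3:**
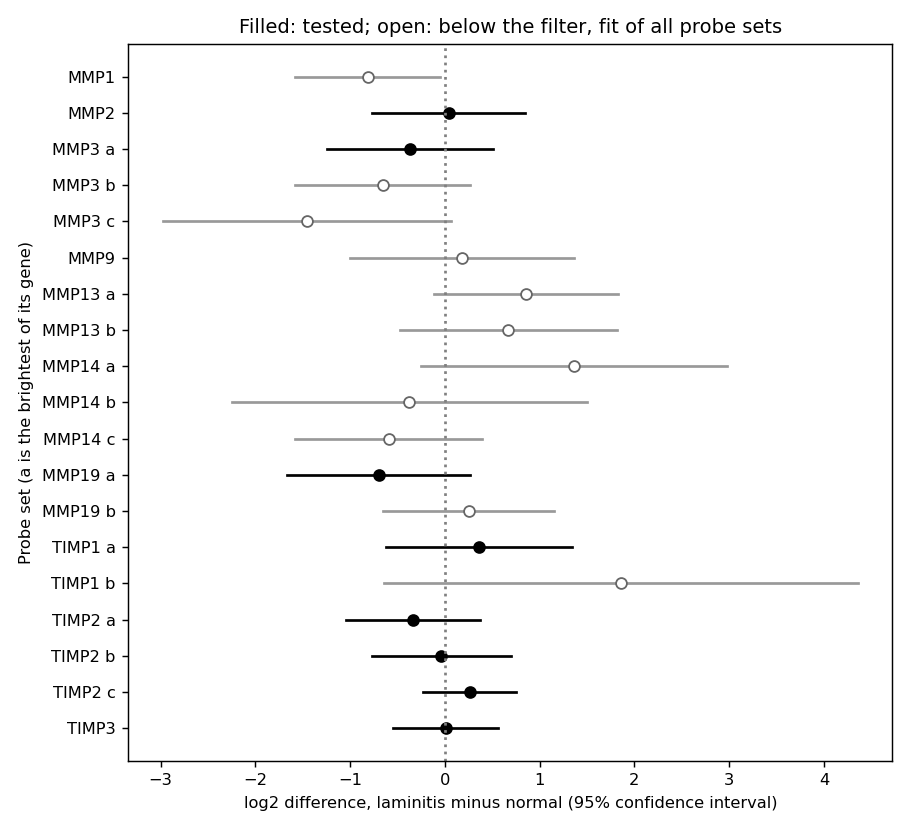
Log2 difference, laminitis minus normal, of the 19 probe sets with limma 95% confidence intervals. Filled points are the 8 tested probe sets, all with intervals that include 0, and open points the 11 dim ones from the fit of all probe sets, of which MMP1 alone has an interval that ends short of 0, at -0.05.

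**Figure D4:**
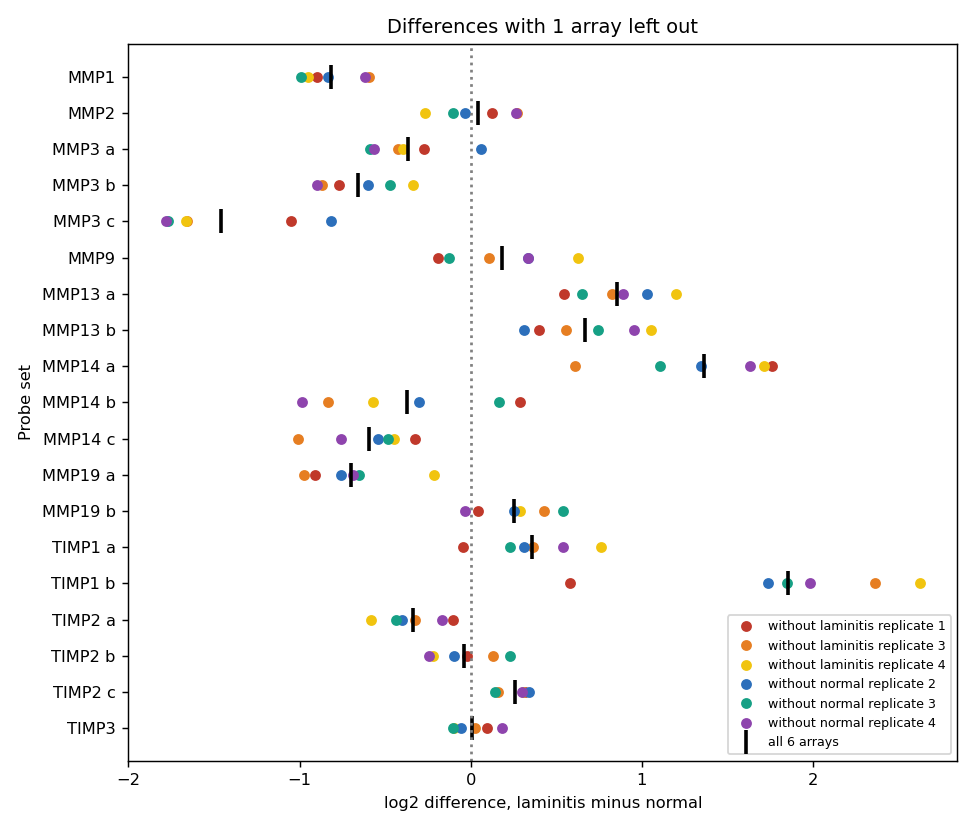
Log2 difference, laminitis minus normal, of each probe set with all 6 arrays (black bars) and with 1 array left out (points, coloured by the array left out). MMP1 stays between -0.99 and -0.59, while TIMP1 b runs from 0.58 without laminitis replicate 1 to 2.62 without laminitis replicate 4.

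The genes whose log2 signal followed a member most closely over the 6 arrays are given as a description, since with 6 points many genes reach a high correlation by their number alone. Pearson's r with MMP2 was 0.982 for RORA and 0.979 for both ANKH and PPP3CA, and 25 of the 6150 other tested genes had an r above 0.9. For TIMP2 a the closest were STAMBP, ASPN and CHPT1, at 0.997, 0.990 and 0.972, of which ASPN encodes asporin, a proteoglycan of connective tissue. TIMP3 was followed by SLC25A17, RTN3 and NUCKS1 at 0.954, 0.952 and 0.943. For TIMP1 a these were DEPTOR, RPS6KA3 and BBS4 (0.998, 0.984 and 0.980), for MMP3 a SST, GGCX and UQCRQ (0.995, 0.973 and 0.963), and for MMP19 a UQCR10, OIT3 and SGCB (0.994, 0.991 and 0.991). The members shared none of these closest genes.

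**Figure D5:**
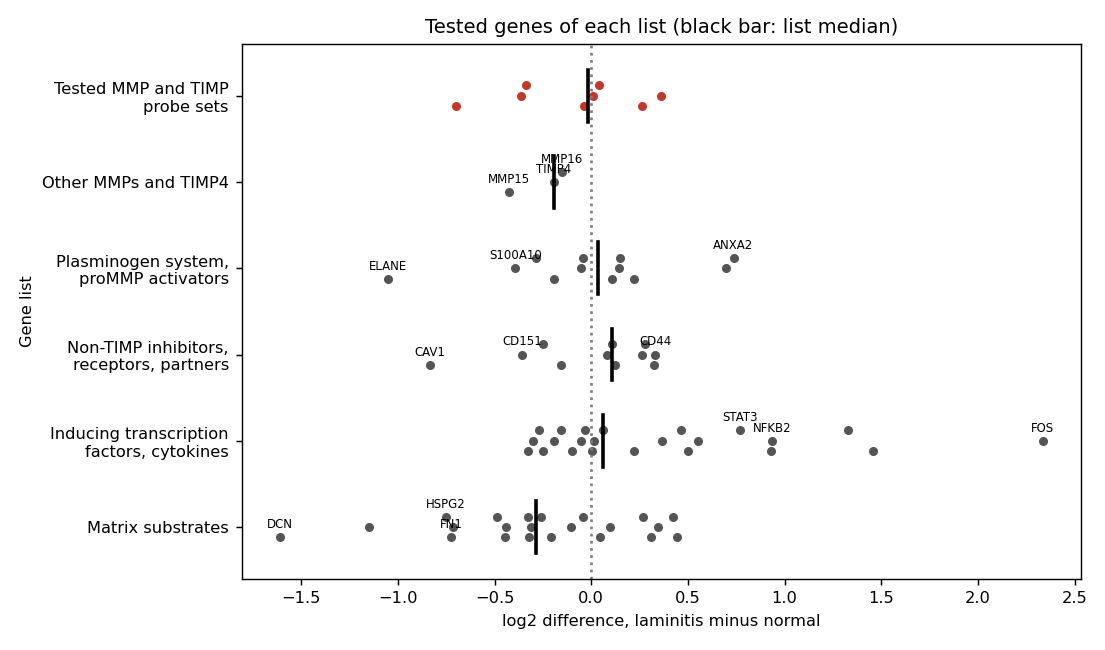
Log2 difference, laminitis minus normal, of the 8 tested MMP and TIMP probe sets (red) and of the tested genes of 5 related lists (grey, 1 point per gene), with the median of each list as a black bar and the genes of smallest p labelled. FOS lies farthest to the right at 2.34 and DCN farthest to the left at -1.61.

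Related genes were read in 5 lists, each gene by its brightest tested probe set. Over all 6151 tested genes 0.0% passed in limma, 9.87% had an unadjusted p under 0.05 (5.33% higher and 4.54% lower in laminitis), and the median log2 difference was -0.03. All laminitis arrays lay above all normal arrays for 8.75% of them and below for 8.37%. Of the other MMPs and TIMP4, 4 of 16 had a probe set and 3 were tested, with a median of -0.20. MMP15, a membrane-type MMP, read 160, 169 and 151 in laminitis and 205, 214 and 226 in normal tissue. Its groups did not overlap, with little spread in either, and the log2 difference was -0.43 ± 0.18 (95% interval -0.84 to -0.01, limma p 0.0460 unadjusted and 0.508 adjusted). It stayed between -0.47 and -0.39 with any 1 array left out. After quantile normalization it was -0.36, and after median centring and cyclic loess -0.34 each, with unadjusted limma p of 0.0818, 0.104 and 0.0949. MMP16, also a membrane-type MMP, had -0.15 ± 0.27, TIMP4 had -0.20 ± 0.22 with -0.16 by another tested probe set, and the groups overlapped in these 3 probe sets. MMP20, the enamel protease, was dim, at 11.9, 13.8 and 13.2 in laminitis and 10.5, 8.52 and 14.0 in normal tissue.

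In the plasminogen system and other activators of proMMPs, 12 of 23 genes were tested, 6 with positive and 6 with negative differences, and the median was 0.03. Of these 0 passed, and 2 had an unadjusted p under 0.05, against 9.87% of all tested genes. ANXA2, a receptor for plasminogen and its activator at the cell surface, read 7206, 5918 and 6608 in laminitis and 3214, 4829 and 3932 in normal tissue, with no overlap, and its limma adjusted p was 0.411. Its log2 difference of 0.74 ± 0.22 was 0.30 after quantile normalization and 0.34 after cyclic loess, with unadjusted limma p of 0.241 and 0.186. Its partner S100A10 had a log2 difference of -0.39 ± 0.25, which was -0.61 after quantile normalization. ELANE, neutrophil elastase, read 37.7, 84.2 and 71.1 in laminitis and 152, 125 and 105 in normal tissue, again without overlap (limma adjusted p 0.445), and is also one of the neutrophil markers. All its laminitis values lay below the median of their array. It thus entered the test through the normal arrays alone, where it was high. Among non-TIMP inhibitors, receptors and binding partners, 11 of 21 were tested, 7 positive and 4 negative, with a median of 0.11, and 0 passed or had an unadjusted p under 0.05. These counts take the brightest probe set of each gene. THBS1, positive there at 0.32, had -0.95, 0.15, -0.29 and -0.54 by its other tested probe sets. That of -0.95 had a limma p of 0.0073 unadjusted and 0.352 adjusted. CAV1, the caveolar coat protein, had -0.83 ± 0.45, which was -0.30 without laminitis replicate 1 and -0.17 by another probe set. The tetraspanin CD151 had -0.36 ± 0.20. CD44, a hyaluronan receptor that can hold MMP9 at the cell surface, had 0.33 ± 0.19. Of the 11, 1 had all laminitis arrays above all normal ones, CD44, and 2 had all below, CAV1 and CD151. Over all tested genes these shares were 8.75% and 8.37%.

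Among transcription factors and cytokines known to induce MMP genes, 23 of 30 were tested, 14 positive and 9 negative, with a median of 0.06. Here 0 passed, 5 had an unadjusted p under 0.05, all with positive differences, and 6 of 23 had all laminitis arrays above all normal ones. Over all tested genes 5.33% were higher at that p and 8.75% had all laminitis arrays above. FOS, a subunit of the AP-1 factor that binds collagenase and stromelysin promoters, read 2593, 1443 and 1969 in laminitis and 393, 294 and 495 in normal tissue (limma adjusted p 0.131), while another FOS probe set gave a log2 difference of -0.02. It passed in 2 alternative fits, with an adjusted p of 0.0265 among probe sets above the median on all 6 arrays and 0.0435 with an intensity trend and robust variance. NFKB2 had 0.94 ± 0.24, and STAT3, the factor downstream of the IL-6 family, had 0.77 ± 0.24. Among matrix substrates, 22 of 32 were tested, 7 positive and 15 negative, with a median of -0.29. Of these 0 passed, 2 had an unadjusted p under 0.05, both with negative differences, and 4 had all laminitis arrays below all normal ones. The shares over all tested genes were 4.54% lower at that p and 8.37% with all laminitis arrays below. HSPG2, the basement membrane proteoglycan perlecan, read 487, 447 and 393 in laminitis and 732, 743 and 751 in normal tissue, so that the normal arrays lay close together and well above. DCN, decorin, read 724, 787 and 1199 in laminitis and 2365, 1685 and 4898 in normal tissue, and is also one of the fibroblast markers. FN1, fibronectin, had -0.72 ± 0.36, which was -0.35 without laminitis replicate 3. The limma adjusted p of HSPG2, DCN and FN1 were 0.330, 0.345 and 0.563.

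Markers of leukocytes that carry MMPs were read beside these values. Of 10 neutrophil markers 7 had a probe set and 4 were tested. S100A8 and S100A9 were higher on every laminitis array than on every normal array. MPO and ELANE, the latter tested through the normal arrays alone, were lower on every laminitis array. Of all tested genes 8.75% lay wholly above in laminitis and 8.37% wholly below. The log2 differences were 4.37 ± 1.00 for S100A8, 4.52 ± 0.87 for S100A9, -1.05 ± 0.34 for ELANE and -0.44 ± 0.21 for MPO. Their limma adjusted p were 0.296, 0.226, 0.445 and 0.561. A dimmer S100A9 probe set had 2.81, with its groups overlapping. CAMP, LTF and ITGAM lay below the median on all 6 arrays. Of these, CAMP had -1.09, with all laminitis arrays below all normal ones, as for 8.32% of all probe sets. LTF had 0.38 and -0.36 and ITGAM had 0.36 and -0.92 by their probe sets, with the groups overlapping. The summed signal of the 7 was 13074, 9914 and 1550 on laminitis replicates 1, 3 and 4, and 1021, 560 and 598 on normal replicates 2, 3 and 4. In this sum the laminitis arrays ran in the order replicate 1, then 3, then 4. MMP9, both MMP13 probe sets and both TIMP1 probe sets had the same order, and the other MMP and TIMP probe sets did not. It was noticed in the members' own values and is a description, and its share over all genes was not counted. The sum weighs the brightest probe sets most, here S100A8 at 9810, 7256 and 779 and S100A9 at 2947, 2392 and 486 on those arrays. ELANE, at 37.7, 84.2 and 71.1, and MPO, at 198, 153 and 159, did not have this order. The part of leukocytes in the MMP9, MMP13 and TIMP1 values was not tested. Of 8 macrophage markers 6 had a probe set, with a summed signal of 683 to 798 in laminitis and 581 to 681 in normal tissue. The higher sum in laminitis came from CYBB, an NADPH oxidase subunit of phagocytes. Without CYBB the laminitis sums would not lie above the normal ones, and the other markers went both ways. CYBB read 233, 265 and 256 in laminitis and 37.4, 40.8 and 107 in normal tissue, without overlap (log2 difference 2.20 ± 0.41, limma adjusted p 0.222). A dim CYBB probe set had 0.62, with its groups overlapping. MSR1 had 0.59 ± 0.27 by its tested probe set, with its groups overlapping, and -0.73 and -0.86 by dim ones. CD14 had -0.16, CD68 had -0.26, the dim CSF1R had -0.74 and the dim AIF1 had -0.97. An unadjusted p under 0.05 was also reached by DCN, by the smooth muscle marker TAGLN at -0.83 ± 0.34 and by the T cell marker CD2 at -0.98 ± 0.38. Of all tested genes 9.87% reached it. CYBB, PDGFRA, TAGLN and CD2 are named after their values were seen. The tested markers were of neutrophils (4), macrophages (4), fibroblasts (8), keratinocytes (5), endothelium (3), smooth muscle (3), T cells (4) and mast cells (2). Of these 0 passed the adjusted test, as over all tested genes, and 0 of 3 erythrocyte markers could be tested.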

How the data were processed

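Total RNA was labelled with biotin after oligo(dT) priming and read on Affymetrix bovine arrays, per the labels' protocols. The deposited values are linear intensities, with a mean after trimming 2% at each end of 150.0 on every array. The submitters' processing notes name GCRMA, but no source used here gives the step that made them linear. Of 24128 probe sets 112 controls were left out. Symbols are those of the bovine platform annotation at GEO, some possibly outdated, and all 10 are in the horse RefSeq table. Log2 values without offset were compared with lmFit and eBayes (limma 3.58.1, R 4.3.3), in two-sided tests whose p-values were adjusted by Benjamini-Hochberg over the 12519 tested probe sets, at 0.05. A gene of a list was read by its brightest tested probe set. The arrays' number limits the precision, no detection calls were used, and no 2 arrays were identical. Members, lists and tests were chosen with earlier results of these data known. Named list genes are the 3 of smallest p per list and all of the other MMPs, with THBS1 added for its probe sets of differing sign. In simulated data the fit called 17% of 2-fold and 67.4% of 4-fold changes, with 7.2 false calls on average, so most 2-fold changes were missed. Alternatives were other filters, normalizations, offsets and variance models, the replicate block and leaving out each array.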

Additional observations from a re-analysis of the deposited data

How the results depend on the processing

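Of the MMP and TIMP probe sets tested under each alternative, 0 passed limma at an adjusted p of 0.05. The 11 dim ones were tested without the filter alone, and under the other alternatives have values with no test. Over all probe sets, against 0 higher and 0 lower, 6 higher were called among probe sets above the median on all 6 arrays, 4 higher and 3 lower among those above it on all 3 arrays of a group, and 4 higher with an intensity trend and robust variance. Leaving out 1 array gave 0 to 2 higher, the 2 without laminitis replicate 4, and 0 lower. Of the other list genes 1, FOS, was called under the first and the last of those settings. Of 432 recomputed log2 differences of named tested probe sets 16 changed sign, and of 132 of the dim ones 7, in MMP9, MMP14 b and MMP19 b. MMP2 (0.04) ranged from -0.27 to 0.27 with 1 array left out, MMP3 a (-0.37) from -0.59 to 0.060, TIMP1 a (0.36) from -0.046 to 0.76, TIMP2 b (-0.037) from -0.24 to 0.23 and TIMP3 (0.0071) from -0.11 to 0.18. TIMP2 b was 0.046 after median centring, and TIMP3 was -0.020 after quantile normalization and -0.033 after cyclic loess. The labels do not say whether replicates 3 and 4 pair samples, and 2 pairs cannot settle it. Deviations from the group means correlated at -0.017 and -0.031 between their laminitis and normal arrays. With the replicate number as a fixed block, which leaves the comparison to those 2 numbers, MMP3 a was 0.15, TIMP1 a -0.092, MMP16 0.024 and MMP3 c -0.41. Other dim probe sets moved too, with MMP9 at -0.039, MMP13 b at 0.042, MMP14 b at 0.36 and TIMP1 b at 0.46, and 0 probe sets were called, as with a random block. The cause was not tested in these cases beyond the arrays left out. With 64 added to every signal MMP3 c was -0.47, since a fixed addition shrinks the differences of dim probe sets. Dim signals limit MMP1, MMP9, MMP13 and MMP14.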
